A study of Mus musculus with 1457 samples.

Results

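Gfi1, Gfi1b and 4 genes of the corepressor complex that their proteins recruit, Kdm1a, Rcor1, Hdac1 and Hdac2, were followed through single cells of the mouse aorta-gonad-mesonephros (AGM) region, the embryonic site where blood stem cells arise from the wall of the dorsal aorta. The 6 genes were taken by their names in both deposited count tables, out of 36131 genes held whole in both, and all 6 were present. The data were reads per gene from 1457 ICR mouse cells, each sorted into a well of its own and amplified by Smart-seq2, in 19 groups of stage, gate, reporter line and genotype. No label tied a cell to an embryo, so each group was treated as 1 sample.

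The line called Gfi here carried a Tomato reporter in Gfi1 and a GFP reporter in Gfi1b (Gfi1:Tomato/WT Gfi1b:GFP/WT), so every heterozygous group of that line had 1 wild-type copy of each gene. Every gate excluded TER119+ and CD45+ cells, and every gate but the mesenchymal one required CDH5. Endothelium (Endo) was negative for both reporters. Hemogenic endothelium (HE), the endothelium that gives rise to blood, was positive for the GFI1 reporter alone. Cells in the endothelial-to-hematopoietic transition (EHT) were KIT+ and CD41+ with the GFI1 reporter alone, and intra-aortic hematopoietic clusters (IAHC) were KIT+ and CD41+ with both reporters. The groups of this line at E10.5 were Endo (74 cells), HE (95 cells), EHT (41 cells) and IAHC (42 cells), and those at E11.5 were Endo (16 cells), HE (40 cells) and IAHC (22 cells). A further 42 HE cells at E10.5 were labelled homozygous for both reporters (Gfi1:Tomato/Tomato Gfi1b:GFP/GFP).

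The Runx1b:RFP/WT line was sorted at E10.5 on a RUNX1b reporter, and its labels name no change in Gfi1 or Gfi1b. It gave Endo (53 cells), HE (17.98% of all cells) and CDH5- mesenchymal cells (Mes, 7.34% of all cells), and Runx1b:RFP/RFP embryos gave 91 Mes cells. A group of HE cells from that line, 19.01% of all cells, was titled KO while its genotype field read heterozygous, and it is called titled KO. Gfi1:Tomato/WT embryos at E10.5 were sorted on angiotensin-converting enzyme (ACE) into ACE- GFI1- Endo (14 cells), ACE+ GFI1- cells (7.96% of all cells) and ACE+ GFI1+ HE (39 cells), held in a count table of their own. Titles and stage fields disagreed for 41 Endo, 43 HE and 42 EHT cells of the Gfi line (E11.5 in the title), and these cells of conflicting stage were given values but entered the comparisons only as an added set in 1 alternative of the HE test and as groups in the likeness of genes.

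GFI1 and GFI1B are closely related zinc finger repressors with an amino-terminal SNAG domain. The SNAG domain binds the histone demethylase LSD1, encoded by Kdm1a, and through it the scaffold protein CoREST, encoded by Rcor1, and the histone deacetylases HDAC1 and HDAC2. In the AGM both factors silence endothelial genes as hemogenic endothelium turns into blood cells. Later, GFI1 is best known in neutrophil and lymphoid precursors and stem cells, and GFI1B in the erythroid and megakaryocytic lineages. Both factors also bind regulatory regions of their own and each other's genes.

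The stretches before the start sites of both repressor genes are shown because these genes are themselves bound by GFI proteins, which read an AATC core. Gfi1b (ENSMUSG00000026815) lies on chromosome 2 from 28609450 to 28621982 on the minus strand of GRCm38, and Gfi1 (ENSMUSG00000029275) on chromosome 5 from 107716657 to 107726036, also on the minus strand. The RefSeq table (GRCm38.p6) held promoters for 5 of the 6 members, all but Hdac1. The 250 bases before the start site of Gfi1b (chr2:28621983-28622232, minus strand, 0 annotated exon bases) and before the second listed start site of Gfi1, within an intron of the gene (chr5:107724344-107724593, minus strand, 0 annotated exon bases) read 5′ to 3′, with AATC or its reverse complement GATT in capitals:
Gfi1b: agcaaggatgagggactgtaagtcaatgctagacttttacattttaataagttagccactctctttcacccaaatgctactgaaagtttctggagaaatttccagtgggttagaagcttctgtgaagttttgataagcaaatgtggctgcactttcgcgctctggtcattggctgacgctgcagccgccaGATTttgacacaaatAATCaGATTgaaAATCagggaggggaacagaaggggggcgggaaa
Gfi1, second start site: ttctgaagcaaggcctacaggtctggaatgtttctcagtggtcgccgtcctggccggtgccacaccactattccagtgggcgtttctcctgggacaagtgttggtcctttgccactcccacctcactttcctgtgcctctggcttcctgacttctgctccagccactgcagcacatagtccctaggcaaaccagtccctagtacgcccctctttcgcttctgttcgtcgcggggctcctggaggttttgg
The Gfi1b stretch held 4 matches of AATC on both strands together, all between positions -60 and -33 counted back from the start site, and the Gfi1 stretch held 0. Of 32851 RefSeq promoter stretches of the same length, 69.02% held at least 1 match and 7.04% held 4 or more. The longer form AATCNNNGC, searched on both strands and holding the core within it, matched neither stretch and was in 8.87% of all stretches. The stretch before the first listed start site of Gfi1 is annotated as exon throughout and is not shown. It held 1 match of AATC, as did that of Kdm1a, and those of Rcor1 and Hdac2 held 0. A match of letters is a description of the sequence, not a measured binding site.

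Depth varied widely, from 12 to 5652968 reads in a cell (median 598000), and 51 cells had under 100000 reads. Group medians were 2173456 to 3977381 reads at E11.5 and 421344 to 1149726.5 reads in the E10.5 groups of clear stage. Levels are given in CPM, the summed reads of a gene scaled to 1000000 reads in its group, with exact 95% Poisson intervals. Shares are cells with 1 or more reads, given with 95% Clopper-Pearson limits. Both kinds of interval cover counting error only, since Smart-seq2 reads carry no molecular identifiers and the groups have no replicates. In a sum over cells, fewer cells with a transcript and less of it per cell cannot be told apart, so shares stand beside levels. Although TER119 was gated out, 83 cells had 1% or more of their reads in globin genes and are called globin-rich: 14 of 22 IAHC cells at E11.5, 16 of 95 HE cells at E10.5, 31 Runx1b heterozygous HE cells (11.8%), 10 heterozygous Mes cells (9.35%) and at most 4 cells in any other group. Cells with reads of 10 or more of 20 endothelial marker genes made up 83.2% of HE and all cells of Endo and EHT in the Gfi line at E10.5, 97.8% of titled KO HE, 40.9% of E11.5 IAHC and 50% of Runx1b heterozygous HE.

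Gfi1 had no read in the Endo groups of clear stage in the Gfi and Runx1b lines, was present from HE onward and, in the heterozygous E10.5 groups of the Gfi line, highest in EHT cells. Its level at E10.5 went from 0 CPM in Endo and 55.2 CPM (53.4 to 56.97) in HE to 136.5 CPM (131.5 to 141.6) in EHT, and stood at 69.7 CPM (66.5 to 72.999) in IAHC. The level thus climbed to EHT and was lower again in IAHC, with no overlap of the counting intervals. No Endo cell of 74 had a Gfi1 read, which allows up to 4.05% of cells when 3 cells of the total are taken as the limit of a count of 0. Reads were present in 38 of 95 HE cells, 37 of 41 EHT cells (90.2%, 76.9% to 97.3%) and 29 of 42 IAHC cells (69.05%, 52.9% to 82.4%). In the cells that had a read, the medians for HE, EHT and IAHC were 129.6, 122.7 and 53.7 CPM, so HE and EHT differed more in the share of cells than in the level per positive cell. Single cells of EHT ran from 0 to 540.2 CPM around a median of 116.4 CPM. The gates sort by a GFI1 reporter, so the step from Endo to HE in this line and in the ACE sorts is how the groups were made.

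Over all 19 groups Gfi1 was highest in the labelled homozygous HE cells at 218.9 CPM, followed by EHT of conflicting stage at 179.2 CPM, EHT at 136.5 CPM, ACE+ GFI1+ HE at 104.1 CPM, HE of conflicting stage at 101.2 CPM and E11.5 HE at 79.2 CPM. Then came IAHC at 69.7 CPM, HE at 55.2 CPM, E11.5 IAHC at 20.9 CPM, Endo of conflicting stage at 12.9 CPM and Runx1b heterozygous HE at 5.87 CPM. The order ended with ACE+ GFI1- cells at 0.772 CPM, ACE- GFI1- Endo at 0.549 CPM and titled KO HE at 0.0150 CPM, and 5 groups, 3 of Endo and 2 of Mes, had 0 Gfi1 reads. Counting intervals of neighbours overlapped between ACE+ GFI1+ HE and HE of conflicting stage, and between the ACE+ GFI1- and ACE- GFI1- cells. The other neighbours with reads lay outside each other's counting intervals, and their spread between embryos is not known.

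**Figure D1:**
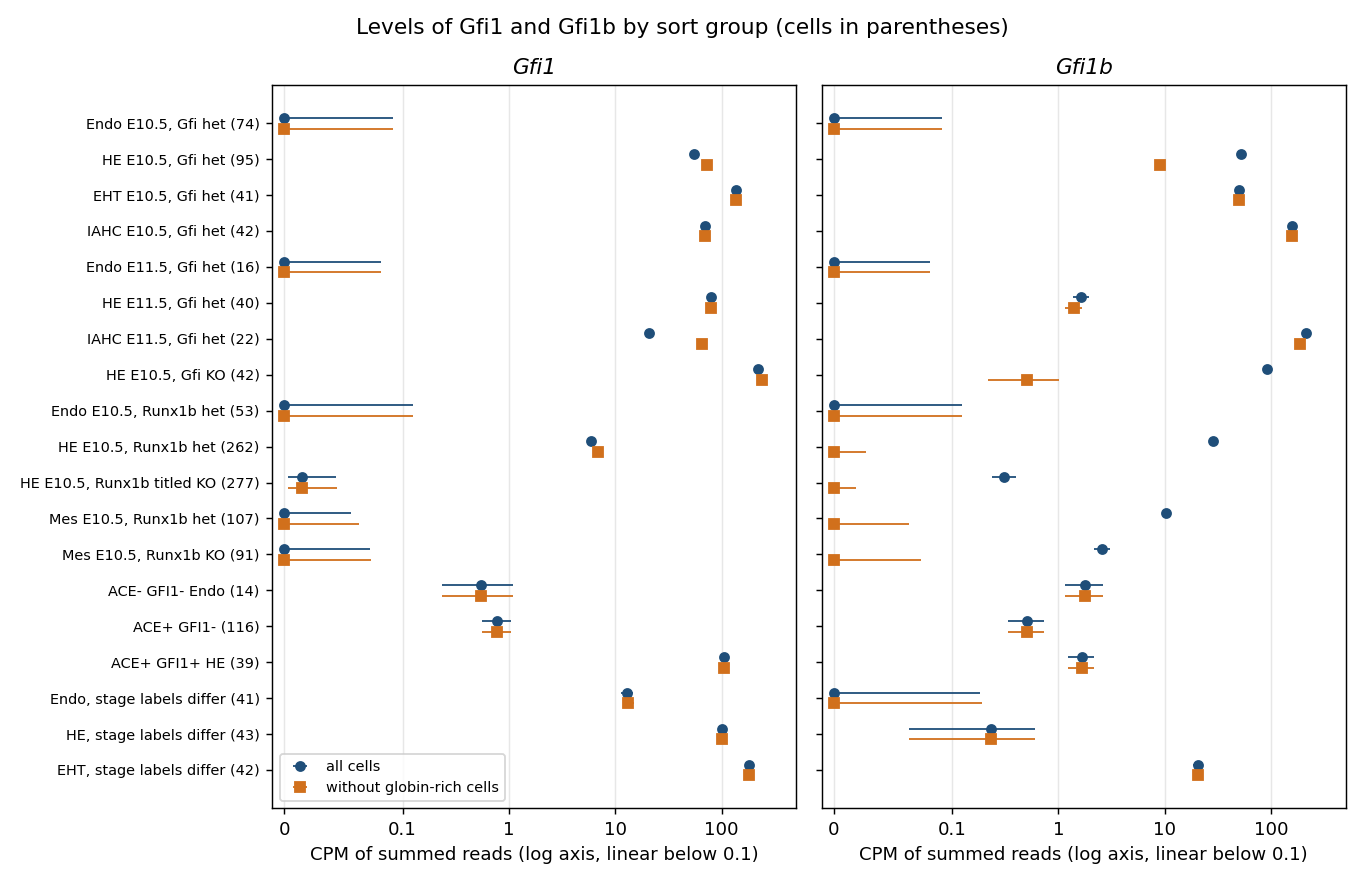
CPM of summed reads of Gfi1 (left) and Gfi1b (right) on a log axis that is linear below 0.1, in each of the 19 groups, over all cells (circles) and without globin-rich cells (squares), with exact 95% Poisson intervals. Without globin-rich cells Gfi1 moves most in E11.5 IAHC (20.9 to 64.96 CPM), whereas Gfi1b goes from 28.6 to 0 CPM in Runx1b heterozygous HE and from 91.6 to 0.510 CPM in the labelled homozygous HE cells.

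Gfi1b was highest in IAHC, whose gate selects its reporter, at 156.4 CPM (151.6 to 161.4) at E10.5 and 213.99 CPM (210.9 to 217.1) at E11.5. It had 0 reads in the 4 Endo groups of the Gfi and Runx1b lines. The heterozygous HE cells at E10.5, gated as GFI1B-, stood at 52.1 CPM (50.4 to 53.8) and the EHT cells at 50.1 CPM (47.1 to 53.2), which overlapped within counting error. Reads were present in 21 of 95 HE cells (22.1%, 14.2% to 31.8%), 18 of 41 EHT cells (43.9%, 28.5% to 60.3%) and 39 of 42 IAHC cells (92.9%, 80.5% to 98.5%). The intervals of the HE and EHT shares also overlapped. Of the other groups, the labelled homozygous HE cells had 91.6 CPM, Runx1b heterozygous HE 28.6 CPM, EHT of conflicting stage 20.7 CPM, heterozygous Mes 10.2 CPM and Runx1b:RFP/RFP Mes 2.59 CPM. ACE- GFI1- Endo, ACE+ GFI1+ HE and E11.5 HE lay between 1.64 and 1.78 CPM with overlapping intervals, as did ACE+ GFI1- cells, titled KO HE and HE of conflicting stage between 0.234 and 0.503 CPM. The interval of Runx1b:RFP/RFP Mes also met that of ACE- GFI1- Endo.

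Outside the EHT and IAHC gates of the Gfi and Runx1b lines, most Gfi1b reads came from globin-rich cells. Of the 83 globin-rich cells, 62 had Gfi1b reads and 2 had Gfi1 reads. In E10.5 HE, 13 of 16 globin-rich cells had Gfi1b reads, at 186.3 CPM over the 16, and none had a Gfi1 read. The other 79 cells of that group had Gfi1b at 9.06 CPM (8.26 to 9.92), with reads in 8 cells. In Runx1b heterozygous HE all 20 cells with Gfi1b reads were globin-rich, and the remaining cells held 0 reads, which allows up to 1.299% of them. The 9 Gfi1b cells of heterozygous Mes, the 1 of Runx1b:RFP/RFP Mes and the 1 of titled KO HE were also all globin-rich. Erythroid markers, 9 of 10 of which were in the tables, were high in groups with many globin-rich cells but did not follow the group level of Gfi1b. Their summed level was 1976 CPM in E10.5 HE and 5088 CPM in E11.5 IAHC, against 89.3 and 55.8 CPM in E10.5 EHT and IAHC. In the labelled homozygous HE cells it was 356.1 CPM, beside 91.6 CPM of Gfi1b. EHT and E10.5 IAHC held 0 globin-rich cells. Of the erythroid markers, Slc4a1, the red cell anion exchanger, was at 0 CPM in EHT, while all the others were read there, Tfrc most at 62.3 CPM.

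Few cells lay between low and high globin, in a count of the cells with 100000 or more reads. Outside the IAHC and EHT gates, Gfi1b reads were present in 14 of 1130 cells with under 0.01% of reads in globin genes (1.24%) and in 48 of 64 cells with 10% or more. Only 2 cells lay between 1% and 10%, so the bound of 1% placed few cells. In the EHT and IAHC gates, 71 cells with under 0.01% globin reads had Gfi1b (57.3% of such cells), and 53 of these also had Gfi1.

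Both repressor genes were read in the same cell in 66 of 1457 cells (4.53%), while 18.7% of all cells had Gfi1 and 10.4% had Gfi1b. Of the cells with Gfi1b that were not globin-rich, 71.9% also had Gfi1 (64 cells), whereas of the 62 globin-rich cells with Gfi1b, 2 did. EHT and IAHC at E10.5, whose gates select the GFI1 reporter, gave 15 and 26 of those 64 cells. In E10.5 HE 6 of 95 cells had both (6.32%, 2.35% to 13.2%), 32 had Gfi1 alone and 15 Gfi1b alone. Without globin-rich cells 6 of 79 had both (7.59%, 2.84% to 15.8%) and 2 had Gfi1b alone, so the double-positive HE cells were all outside the globin-rich set. In EHT 15 of 41 cells had both, 22 had Gfi1 alone, 3 Gfi1b alone and 1 neither. In IAHC 26 of 42 cells had both, 3 had Gfi1 alone, 13 Gfi1b alone and 0 neither.

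EHT was gated on the GFI1 reporter alone and IAHC on both reporters, so the sort itself selects the states that follow. Gfi1 alone was the commonest state in EHT and both genes together the commonest in IAHC. The shares of both were 36.6% (22.1% to 53.1%) and 61.9% (45.6% to 76.4%), and their intervals overlapped. The products of the separate shares of Gfi1 and Gfi1b, 39.6% in EHT and 64.1% in IAHC, lay within those intervals. Thinned to 100000 reads per cell, 14 of 41 cells in EHT held both genes, and 21 of 42 in IAHC.

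**Figure D2:**
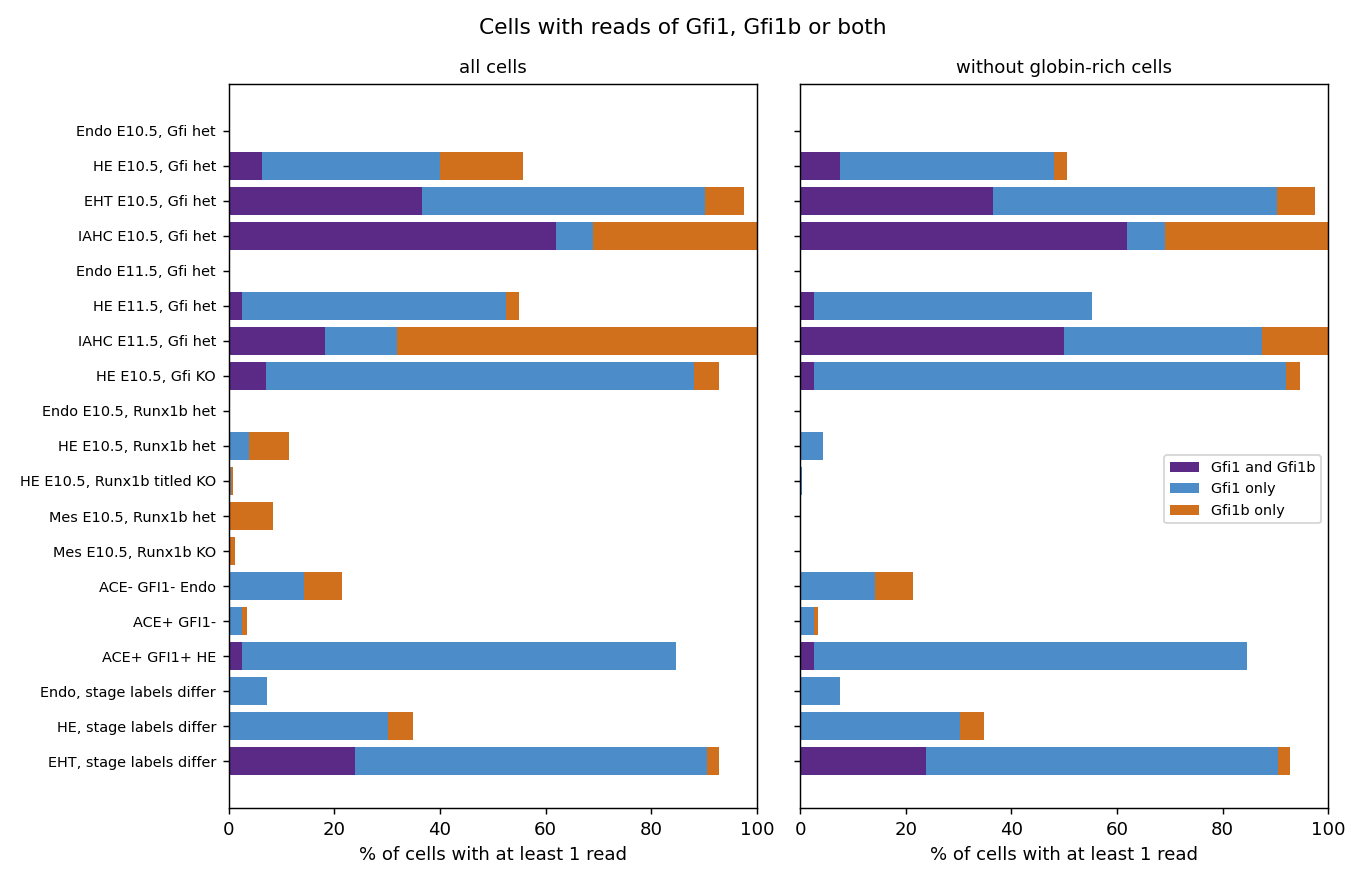
Share of cells (%) with 1 or more reads of Gfi1 and Gfi1b, of Gfi1 only and of Gfi1b only in each group, over all cells (left) and without globin-rich cells (right). Cells with both genes reach 36.6% in EHT and 61.9% in IAHC at E10.5, and the Gfi1b-only cells of E10.5 HE go from 15 of 95 to 2 of 79 without globin-rich cells.

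**Figure D3:**
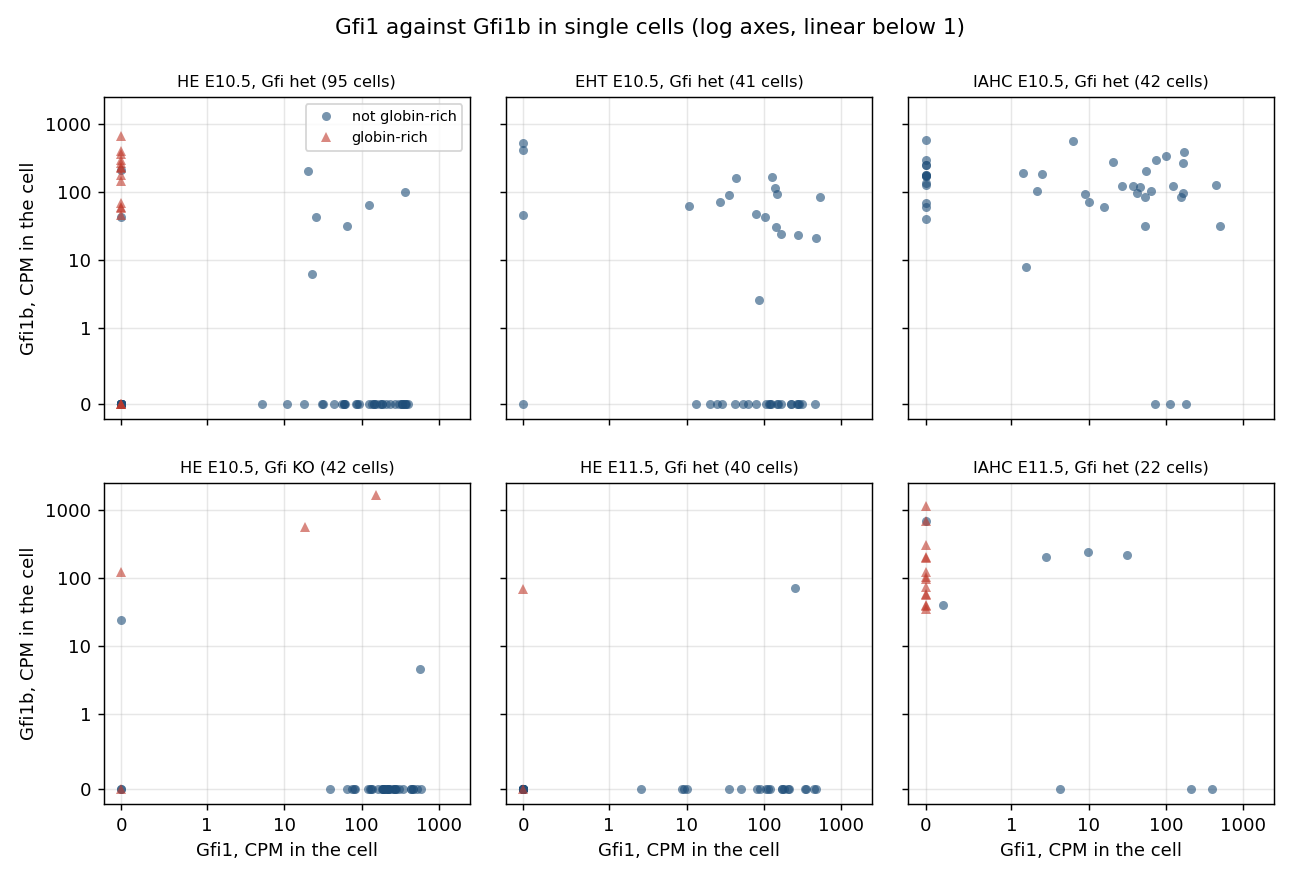
Gfi1 against Gfi1b in single cells (CPM, log axes that are linear below 1) of 6 groups of the Gfi line, with globin-rich cells as triangles and cells without either gene at the origin. The 22 EHT cells with Gfi1 alone lie along the bottom axis, 13 IAHC cells with Gfi1b alone along the left axis, and the 13 globin-rich HE cells with Gfi1b all lie on the left axis.

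Neighbouring E10.5 groups were compared as 1 group against 1, with no p-value, and a gene counted as apart at 2-fold or more with 10 CPM or more in the higher group. From Endo to HE, 2 of 6 members were apart, both higher, against 17.6% of all genes apart in either direction. Gfi1 was at least 739-fold and Gfi1b at least 698-fold higher, set against a floor of 3 reads in the Endo sum, and without globin-rich cells Gfi1b in HE fell short of 10 CPM. From HE to EHT, 1 of 6 was apart (Gfi1, 2.47-fold higher), against 20.3% of all genes. Over all cells Gfi1b had a log2 ratio of -0.06 in that step, and without globin-rich cells one of 2.47 (9.06 to 50.1 CPM), while Gfi1 was then 1.87-fold higher. From EHT to IAHC, 1 of 6 was apart (Gfi1b, 3.12-fold higher, 50.1 to 156.4 CPM), against 12.4% of all genes. The HE gate selects the GFI1 reporter, and the IAHC gate selects the GFI1B reporter as well. The calls of Gfi1 from Endo to HE and of Gfi1b from EHT to IAHC thus follow from the sort. Gfi1 was 1.96-fold lower in IAHC than in EHT, just short of the bound, and 2.20-fold lower after thinning. The summed endothelial markers ran down along HE, EHT and IAHC, at 9055, 4805 and 2762 CPM, and their part in the members' values was not tested.

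In the HE cells labelled homozygous for both reporters, reads of both targeted genes were present, so reads per gene gave no check of the label. Gfi1 stood at 218.9 CPM (212.1 to 225.9) against 55.2 CPM in heterozygous HE, 3.97-fold higher, with reads in 37 of 42 against 38 of 95 cells. In the cells with reads the median was 212.9 CPM against 129.6 CPM, so both the share of cells and the level in them were higher. Without globin-rich cells Gfi1 was 241.5 CPM in labelled homozygous against 72.9 CPM in heterozygous HE, 3.31-fold higher. The shares of cells with a read were then 92.1% and 48.1%. The labels do not say which exons the reporter alleles keep, and transcripts of a reporter allele and of a wild-type allele cannot be told apart in counts per gene. Gfi1b was 91.6 CPM against 52.1 CPM over all cells. Its level was 753.2 CPM in the 4 globin-rich cells, with reads in 3 of them, and the other 38 cells held 8 reads in 2 cells (0.510 CPM, 0.220 to 1.01), against 9.06 CPM in 8 of 79 heterozygous HE cells. Those shares of Gfi1b cells, 5.26% (0.644% to 17.7%) and 10.1% (4.47% to 18.98%), had overlapping intervals. Of the corepressor genes over all cells, Hdac1 was 1.68-fold and Hdac2 1.48-fold higher, Rcor1 1.19-fold and Kdm1a 1.02-fold higher. Without globin-rich cells Hdac1 was 1.425-fold and Hdac2 1.26-fold higher. Rcor1 was then 113.2 CPM in labelled homozygous against 116.2 CPM in heterozygous HE, and Kdm1a 134.35 against 148.6 CPM. In all, 1 of 6 members was apart, against 13.4% of all genes.

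Of 19 genes reported as GFI1 or GFI1B targets, 12 were tested between the labelled homozygous and heterozygous HE cells. Of these, 4 were higher and 1 lower, against 13.4% of all genes apart in either direction. The median log2 ratio of the 12 was 0.51 against 0.07 over all genes tested. The 5 genes apart were named after their values were seen. Egr1, an immediate-early transcription factor, was 34.5 CPM in heterozygous and 150.8 CPM in labelled homozygous cells. Socs3, an inhibitor of cytokine signalling, was 6.69 and 21.97 CPM, Csf1, a macrophage growth factor, 31.5 and 78.2 CPM, and Spi1, which encodes the myeloid factor PU.1, 24.1 and 49.4 CPM. Cdkn1a, a cell cycle inhibitor, was the lower one, at 17.2 and 6.33 CPM. Summed erythroid markers were 1976 CPM in heterozygous and 356.1 CPM in labelled homozygous HE, and their part in these values was not tested.

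At E11.5 the HE cells had Gfi1 and little Gfi1b. Gfi1 was 79.2 CPM (77.4 to 81.1), with reads in 21 of 40 cells, and Gfi1b 1.64 CPM (1.38 to 1.93), with reads in 2 cells, 1 of them globin-rich. Set against E10.5 HE, 1 of 6 members was apart (Gfi1b, 31.8-fold lower), against 28.6% of all genes. Without globin-rich cells E10.5 HE stood at 9.06 CPM, under 10 CPM, and 0 of 6 were apart.

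In IAHC, Gfi1b was 1.37-fold higher at E11.5 than at E10.5, Gfi1 was 3.33-fold lower, Kdm1a 5.42-fold, Hdac2 6.37-fold and Hdac1 2.11-fold lower. This made 4 of 6 members apart, against 62.1% of all genes with a median log2 ratio of -1.12. With TMM scaling, which moved that median to 0.07, 2 members were higher (Gfi1b 2.94-fold, Rcor1 2.43-fold) and 2 lower (Kdm1a 2.52-fold, Hdac2 2.97-fold), and the share of calls that were higher went from 11.3% to 57.1% over all genes. Without the 14 globin-rich cells the share of all genes apart was 40.6% and the median 0.09, and 2 of 6 members were apart. Rcor1 was then 2.98-fold higher (51.2 to 152.9 CPM) and Hdac2 3.10-fold lower (261.3 to 84.3 CPM), over 8 cells. Gfi1 was 64.96 against 69.7 CPM and Gfi1b 186.4 against 156.4 CPM, and of the 8 cells 4 had both genes, 3 Gfi1 alone and 1 Gfi1b alone. Over all cells the summed megakaryocyte markers were 2499 CPM at E11.5 and 383.5 CPM at E10.5, and their part was not tested.

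In RUNX1b-gated HE, whose gate reads neither GFI factor, Gfi1 was rare. Reads were present in 10 heterozygous cells (3.82%, 1.85% to 6.91%) at a median of 124.9 CPM in those 10 cells, against 129.6 CPM in the positive cells of the GFI1 gate. The 10 Gfi1 cells and the 20 Gfi1b cells of this group shared 0 cells. In titled KO HE 1 cell had Gfi1 (3 reads) and 1 other cell had Gfi1b (62 reads). Between titled KO and heterozygous HE 1 of 5 tested members was apart (Gfi1b, 0.310 against 28.6 CPM), against 13.5% of all genes, and without globin-rich cells 0 were. Gfi1 was 0.0150 CPM in titled KO and 5.87 CPM in heterozygous HE, under the 10 CPM that the rule asks. The summed mesenchymal markers were 4984 CPM in heterozygous and 107.5 CPM in titled KO HE, and the endothelial ones 8552 and 20720 CPM, and their part in these differences was not tested. Against the GFI1-gated HE of the Gfi line, with 78.5 CPM of mesenchymal markers, Runx1b heterozygous HE held 9.39-fold less Gfi1, the 1 of 6 members apart, against 14.7% of all genes.

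Mesenchymal cells had 0 Gfi1 reads in both genotypes, which allows up to 2.80% of heterozygous and 3.30% of Runx1b:RFP/RFP cells. Gfi1b was 10.2 and 2.59 CPM, the 1 of 5 tested members apart, against 11.8% of all genes, and 0 CPM in both groups without globin-rich cells. In the ACE sorts Gfi1 separated the GFI1+ gate from the others. It was 0.549 CPM in ACE- GFI1- Endo (2 of 14 cells), 0.772 CPM in ACE+ GFI1- cells (3 cells, 2.59%) and 104.1 CPM in ACE+ GFI1+ HE (33 of 39 cells), 134.9-fold above ACE+ GFI1- cells. Between those last groups 1 of 5 tested members was apart, against 8.07% of all genes, and between ACE+ GFI1- cells and Endo 0 of 4 tested members were, against 30.4%. Gfi1b was read in 1 cell of each ACE group, and the 1 such HE cell also had Gfi1. The ACE groups held 0 globin-rich cells.

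The corepressor genes, unlike the repressors, were read in every group, including the Endo and Mes groups that had no Gfi1. Median levels over the 19 groups, per kilobase of exon, were 43.4 CPM for Hdac2, 35.1 CPM for Hdac1, 23.6 CPM for Kdm1a and 15.1 CPM for Rcor1, against 4.04 CPM for Gfi1 and 0.975 CPM for Gfi1b. The group levels, not scaled by length, ran from 27.3 to 174.3 CPM for Kdm1a, 39.6 to 147.1 CPM for Rcor1, 57.3 to 191.1 CPM for Hdac1 and 41.004 to 293.5 CPM for Hdac2. E11.5 IAHC was lowest for Kdm1a, Hdac1 and Hdac2, and without its globin-rich cells it held 81.5, 138.6 and 84.3 CPM of them. Without globin-rich cells the ranges over groups were 3.32-fold for Kdm1a, 3.86-fold for Rcor1, 2.07-fold for Hdac1 and 3.48-fold for Hdac2.

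Along the E10.5 series of Endo, HE, EHT and IAHC, Kdm1a, the LSD1 gene, was 147.8, 117.8 and 131.98 CPM, and in IAHC it lay between 143.3 and 152.8 CPM. Hdac1 was 142.7, 113.7, 126.4 and 120.8 CPM in the same groups, and Hdac2 was 194.2, 159.9, 231.2 and 261.3 CPM. HE was lowest for all 3 genes, and without its globin-rich cells it held 148.6 CPM of Kdm1a, 142.4 CPM of Hdac1 and 203.9 CPM of Hdac2. Rcor1, the CoREST scaffold, was instead lowest in IAHC: it was 99.99, 90.97 and 95.1 CPM in Endo, HE and EHT and 51.2 CPM (48.5 to 54.1) in IAHC, 1.86-fold below EHT and short of the 2-fold bound. The median cell held 79.5 CPM of Rcor1 in EHT and 45.3 CPM in IAHC, with reads in 39 of 41 and 33 of 42 cells.

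The balance of Hdac2 and Hdac1, the paired deacetylases of the complex, differed between the count tables. Per length, the ratio of Hdac2 to Hdac1 was 0.491 in ACE- GFI1- Endo, 0.606 in ACE+ GFI1- cells and 0.541 in ACE+ GFI1+ HE. It ran from 0.951 to 1.81 in all groups of the larger table except E11.5 IAHC (0.551). Kdm1a was 80.7, 73.997 and 55.9 CPM in the same ACE groups, and E11.5 Endo of the larger table held 73.3 CPM. Those 3 groups differ from the others in line, gate and table at once, and these cannot be told apart.

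**Figure D4:**
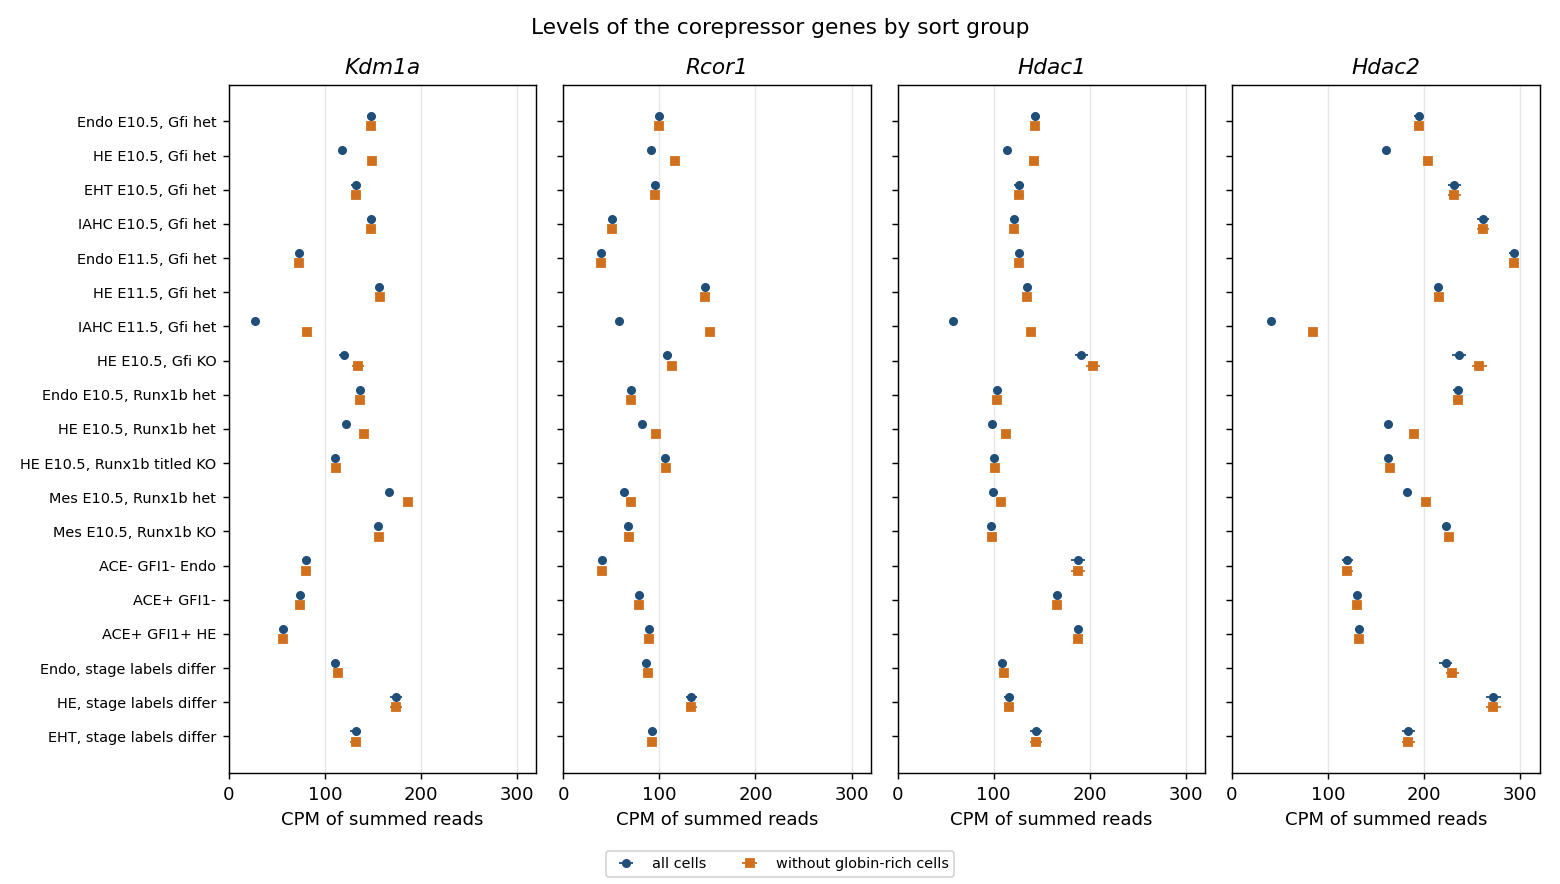
CPM of summed reads of Kdm1a, Rcor1, Hdac1 and Hdac2 in each group (linear axes from 0), over all cells (circles) and without globin-rich cells (squares), with exact 95% Poisson intervals. All 4 genes are read in every group, and in E11.5 IAHC Rcor1 goes from 57.9 to 152.9 CPM without globin-rich cells.

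In EHT, IAHC and HE at E10.5 most cells with a GFI factor also had reads of the complex. Of the 40 EHT cells with Gfi1 or Gfi1b, 37 had Kdm1a and 1 or both of the deacetylase genes, and 36 had all 4 corepressor genes. In IAHC 38 of 42 such cells had Kdm1a with a deacetylase gene and 30 had all 4, and in E10.5 HE the counts were 43 and 34 of 53. Over all cells, with or without a GFI factor, all 4 were read in 90.2% of EHT, 71.4% of IAHC and 65.3% of HE. In E10.5 Endo of the Gfi line, where neither factor was read, the share was 54.1%. Whether factor and complex go together in a cell was not tested. The share with all 4 was lower in some other groups. E11.5 HE had all 4 genes in 11 of 22 such cells. Runx1b heterozygous HE, where 20 of the 30 such cells were globin-rich, had all 4 genes in 4 of 30 cells. E11.5 IAHC, where 14 of the 22 such cells were globin-rich, had them in 6 of 22. Over all cells the shares were 50% in E11.5 HE, 44.7% in Runx1b heterozygous HE and 27.3% in E11.5 IAHC. Thinned to 100000 reads, the counts with all 4 were 28 of 40 in EHT and 28 of 41 in IAHC. At that depth they were 31 of 52 in E10.5 HE and 6 of 20 in E11.5 HE. Over all E11.5 HE cells the share with all 4 was then 29.7%. The thinned counts were 3 of 30 in Runx1b heterozygous HE and 4 of 21 in E11.5 IAHC.

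HE and endothelium were tested against each other over 4 sort sets (Gfi E10.5, Gfi E11.5, Runx1b and ACE), the 1 comparison with replicates, on summed counts with the sort set as a block. Gfi1 rose in HE. In the order of the sets it was 0, 0, 0 and 0.549 CPM in the Endo sums and 55.2, 79.2, 5.87 and 104.1 CPM in the HE sums. The groups did not overlap, and Gfi1 was higher in HE in 4 of 4 sets. The mean went from 0.137 ± 0.274 CPM (SD, n = 4) to 61.1 ± 41.9 CPM (SD, n = 4). The fitted log2 ratio was 10.12 ± 1.22, which depends on the prior count because 3 Endo sums were at 0, with an adjusted p of 0.0331 in edgeR's quasi-likelihood test. The ± of each fitted log2 ratio is an approximate standard error, the size of the ratio divided by the square root of the test's F. In 3 of the 4 sets the gate itself read the GFI1 reporter, and the Runx1b set, which did not, held the lowest HE value, from 10 cells. The edgeR adjusted p was over 0.05 without the Gfi E10.5 set (0.112), without the Runx1b set (0.125), without the ACE set (0.175) and with the cells of conflicting stage as a further set (0.0609).

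The other 5 members did not pass, so 1 of 6 members was called, against 1.4% of 14553 genes. Gfi1b was 0, 0, 0 and 1.78 CPM in Endo and 52.1, 1.64, 28.6 and 1.65 CPM in HE, with a log2 ratio of 9.15 ± 3.31 (edgeR adjusted p = 0.218). It was higher in HE in 3 of 4 sets. Without globin-rich cells the HE sums of the Gfi E10.5, Gfi E11.5 and Runx1b sets held 9.06, 1.40 and 0 CPM. Rcor1 was 99.99, 39.6, 70.3 and 40.5 CPM in Endo and 90.97, 147.1, 82.2 and 89.6 CPM in HE, higher in 3 of 4 sets, with a log2 ratio of 0.85 ± 0.33 and an edgeR adjusted p of 0.245. Kdm1a had a log2 ratio of 0.09 ± 0.29, Hdac1 of -0.00 ± 0.13 and Hdac2 of -0.20 ± 0.15, with edgeR adjusted p-values of 0.895, 0.996 and 0.528. Their Endo and HE sums overlapped.

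**Figure D5:**
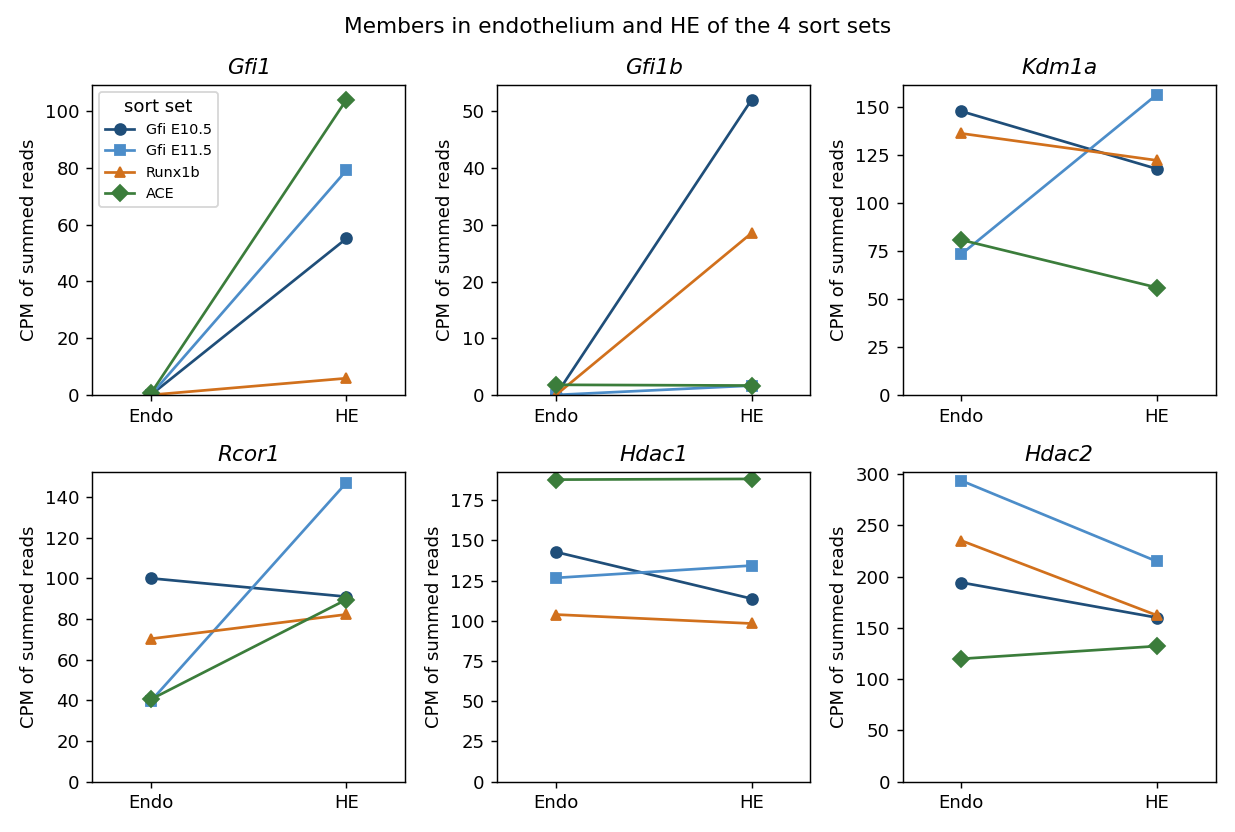
CPM of summed reads of the 6 members in the endothelial (Endo) and HE sums of the 4 sort sets, a line joining the sums of a set, each axis starting at 0. Gfi1 is higher in HE in all 4 sets, from at most 0.549 CPM in Endo to between 5.87 and 104.1 CPM, whereas the lines of Kdm1a, Rcor1, Hdac1 and Hdac2 slope both ways.

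Other genes of the pathway were read by lists. Over all 14553 genes tested, edgeR called 1.4%, 2817 had an unadjusted edgeR p under 0.05, and DESeq2 called 17.8%. Of 14 further CoREST complex members and partners, 0 passed the edgeR test between HE and Endo, 4 were higher and 1 lower at an unadjusted p under 0.05, and DESeq2 called 2 higher and 1 lower. Their median log2 ratio was 0.33 against 0.09 over all genes. Of 24 other corepressors of GFI1 proteins 0 passed in edgeR, with 5 higher at an unadjusted p under 0.05 and 5 called higher by DESeq2. Of 8 other SNAG domain genes 2 were tested and 0 passed in edgeR, with 1 lower at an unadjusted p under 0.05 and 1 called lower by DESeq2. Of 19 reported target genes 14 were tested, 4 rose and 0 fell, with a median log2 ratio of 1.35, and DESeq2 called 8 higher. Without the Gfi E10.5, the Runx1b or the ACE set edgeR called 0 of them, and without the Gfi E11.5 set 2. Spi1 rose from 0.0234 to 24.7 CPM (log2 ratio 10.49 ± 1.12, edgeR adjusted p = 0.0220) and Meis1, which encodes a partner of HOX proteins, from 10.7 to 139.7 CPM (3.94 ± 0.39, edgeR adjusted p = 0.0188). Hoxa9, a HOX gene itself, rose from 35.6 to 121.6 CPM. All 5 tested globin genes rose as well, Hbb-y from 10.04 to 30112 CPM, as did the mesenchymal factor gene Prrx1 (0.0365 to 29.9 CPM) and Vwf, a gene of endothelium and megakaryocytes (137.7 to 1503 CPM), and their part in the values above was not tested. Without globin-rich cells 3 of 13 tested target genes rose in edgeR and 0 of 4 globin genes did. Robo4 and Emcn were the 2 of 20 endothelial markers that fell, from 301.1 to 82.2 CPM and from 1239 to 565.7 CPM, and edgeR called neither when any 1 set was left out.

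Between HE and Endo at E10.5, Gse1 (14.4 against 5.97 CPM) and Zeb2 (63.3 against 30.3 CPM) of the CoREST list were higher in HE and Zeb1 was lower (55.7 against 134.9 CPM). These made 3 of 12 tested genes apart, against 17.6% of all genes, and they were named after their values were seen. The median log2 ratio of the list was -0.28 against -0.19 over all genes. Between EHT and HE 0 of 13 tested genes of the list were apart, against 20.3% of all genes. The median log2 ratio of the list was 0.23 against 0.21 over all genes. Among its genes with 20 CPM or more in the higher group, the largest differences were those of Zmym3 at 83.3 against 55.01 CPM, Gse1 at 20.9 against 14.4 CPM, Zeb1 at 40.2 against 55.7 CPM and Zeb2 at 80.03 against 63.3 CPM. Of the other corepressors 0 of 23 were apart, with a median of 0.46. Mta1, a gene of the NuRD complex, was 72.98 against 38.99 CPM, Cbfa2t2, of the ETO family, 66.3 against 35.96 CPM, Ehmt2, which encodes the histone methyltransferase G9a, 136.8 against 77.6 CPM, and Sin3a 122.2 against 71.7 CPM. Among 11 tested target genes 2 were higher in EHT and 1 lower, against 20.3% of all genes. Spi1 (244.7 against 24.1 CPM) and Meis1 (248.8 against 83.8 CPM) were the higher ones. Id2, an inhibitor of helix-loop-helix factors, was lower (50.1 against 116.03 CPM). Hoxa9, at 195.4 against 101.1 CPM, was short of the bound.

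From EHT to IAHC 1 of 14 CoREST genes was apart, against 12.4% of all genes: Kdm1b, the paralogue of Kdm1a, at 5.58 and 12.3 CPM. Of 11 tested target genes 1 was higher in IAHC and 2 were lower. Rgs18, a regulator of G-protein signalling in platelets, was the higher one (2.72 and 36.02 CPM). Id2 (50.1 and 18.4 CPM) was 1 of the 2 lower ones. These 3 genes of this step were named after their values were seen.

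The genes whose level followed Gfi1 most closely over the 19 groups, by Pearson r of log2(CPM + 1), were Tnfaip8 (0.92), Stat4 (0.91), Adgrg1 (0.90), Selplg (0.89) and Hoxa9 (0.89). For Gfi1b they were Tuba4a (0.94), Syce2 (0.88), Chchd10 (0.87), Gpx1 (0.87) and Nmnat3 (0.86). These are descriptions over groups that share gates and tables. Without globin-rich cells 4 of the 5 genes like Gfi1 were named again, and 0 of the 5 like Gfi1b. Il12a, Rnase6, Nrgn and Sla were then among the most alike, at r of 0.94 to 0.96. By Spearman rank 1 of the 5 for Gfi1 and 2 of the 5 for Gfi1b were named again.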

How the data were processed

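The authors deposited reads per gene and cell as raw counts in 2 tables, 1288 cells and 169 cells of the ACE sorts, whose whole numbers with differing totals show no normalization. Libraries were made by Smart-seq2, per the labels' protocols. The submitters' processing notes list bcl2fastq, STAR 2.4.2a, HTSeq 0.6.1p1, R 3.6.2 and GRCm38. How strand was set, which annotation release was used and whether cells were filtered is not given in the sources used here. Reads of Gfi1 therefore cannot be told apart from those of the antisense gene A430072P03Rik over 101 shared exon bases, nor those of Rcor1 from Gm48632 over 53. Because the larger table stops partway through 1 row, 36131 genes whole in both tables were used, which dropped 10.1% of the ACE reads.

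Cells were grouped by title: 262 Runx1b heterozygous HE, 277 titled KO HE, 107 heterozygous Mes and 116 ACE+ GFI1- cells beside the groups whose sizes are given above. Members and gene lists were chosen with earlier results of these data known. The tables share 169 cell numbers but 0 cells with identical counts. No doublet caller was run. Groups were compared as sums of counts, 1 sample each, without p-values, and sums of fewer than 3 reads counted as 3 in ratios. Positions and exon lengths came from GENCODE and promoters from RefSeq. Named genes were the 6 members, the 5 genes most like Gfi1 and Gfi1b (20 CPM and reads in 25% of cells in the highest group), up to 4 genes a list with the largest EHT to HE ratio at 20 CPM or more, and list genes called in edgeR.

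HE was tested against Endo on 8 sums with edgeR 4.0.16 (R 4.3.3), using filterByExpr, TMM, a term for the sort set, whose pairing comes from the shared line and sort, and the quasi-likelihood test with 3 residual degrees of freedom. P-values were adjusted by Benjamini-Hochberg over 14553 genes, with a threshold of 0.05. No label says how many embryos a set holds, so these p-values measure the spread between the 4 sets. The code was tested on simulated data. Alternatives were DESeq2 1.42.0, other scaling and filters, other choices of cells, thinning to 100000 reads and leaving out each set. Some genes that the naming rule took are not reported here.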

Additional observations from a re-analysis of the deposited data

Results flagged for a closer look

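Of 18 groups of 4 sums examined (the 6 members, Endo and HE, and the log2 ratios of the 4 sort sets), 3 held 1 sum far from the other 3, where chance gives about 1 in 20. That rate does not hold where 3 sums are tied at 0, since any read in the remaining sum is then flagged. Gfi1 and Gfi1b in Endo were such cases, resting on 8 and 26 reads. Gfi1 was 0.549 CPM in the Endo sum of the ACE set and 0 in the other 3 Endo sums. Gfi1b was 1.78 CPM in the same sum and 0 in the other 3. Rcor1 was 147.1 CPM in the HE sum of the Gfi E11.5 set, above the other 3 HE sums. Among the cells whose title and stage field disagree, 4 of the 6 values of Gfi1 and Gfi1b had counting intervals wholly above the upper limit of 0.0918 CPM for each gene in E10.5 Endo. Gfi1 was 12.9 CPM in their Endo cells, 101.2 CPM in their HE cells and 179.2 CPM in their EHT cells, and Gfi1b was 20.7 CPM in their EHT cells. In that Endo group, gated as GFI1-, the Gfi1 reads came from 3 of 41 cells.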

How the results depend on the processing

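Gfi1 stayed higher in HE than in Endo under every alternative, a direction that the GFI1 gate itself sets in all but the Runx1b set. DESeq2 called 2 members (Gfi1b too, log2 ratio 10.40, DESeq2 adjusted p = 0.00095). With the cells of conflicting stage as a further set 0 were called (Gfi1 log2 ratio 8.23). Leaving out each set in turn gave 0 to 1 members called, Gfi1 ratios of 9.12 to 14.83, Kdm1a of -0.26 to 0.31 and Hdac1 of -0.0595 to 0.0074. Hdac1 was 0.0012 without globin-rich cells, 0.018 in cells with 10 endothelial genes, 0.0076 without misspelt titles and 0.018 with the further set, none past the threshold. Without the sort set as a replicate block the Gfi1 ratio was 9.53 (edgeR adjusted p = 0.0134), 1 member was called and 442 genes passed (3.04% of those tested, against 1.4% with it). DESeq2 called 17.8% of genes, thinned cells 6.34%, cells with 10 endothelial genes 3.48%, no filter on low counts 0.599%, and leaving out sets 0 to 0.895%. Gfi1b was not tested after thinning. Without globin-rich cells the members apart were 1 for HE against Endo at E10.5, 0 for HE across stages, 2 for IAHC across stages, 0 for titled KO HE and 0 for Mes. Thinning gave 2 for IAHC against EHT (as did the mean of cells), 2 for IAHC across stages, 0 for Mes (as did the mean of cells) and 1 for ACE+ GFI1- cells against Endo (as did TMM scaling). Cells with 10 endothelial genes gave 2 for the labelled homozygous HE, 2 for IAHC across stages, 1 for ACE+ GFI1- cells against Endo and 2 for Runx1b against Gfi HE. In IAHC across stages the log2 ratio of Hdac1 turned to 0.20 without globin-rich cells, 0.11 in cells with 10 endothelial genes and 0.027 with TMM scaling, the 3 reversals among 66 alternative values of 14 ratios apart. The share of E11.5 IAHC cells with both genes was 50% without globin-rich cells. Likeness kept 1 gene for Gfi1 and 2 for Gfi1b by Spearman rank, and 0 for Gfi1b without globin-rich cells. Of 240 shares of cells, 25 left their intervals. The causes were not tested.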
